A study of Bos taurus with 81 samples.

Results

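The regions described here are 1 kb stretches of the cattle genome that carried trimethylated histone H3 lysine 4 (H3K4me3) in every library from the morula onwards and in no library before the 8-cell stage. The 29 autosomes were divided into 2488055 bins of 1 kb, and a bin was counted as marked in a library when the deposited peaks of that library covered at least 50% of it. Members were the 3938 bins marked in both H3K4me3 libraries of each of 4 late groups and in neither library of each of 3 early ones. The late groups were morulae (MO), blastocysts (BL) and the separated inner cell mass (ICM) and trophectoderm (TE), and the early ones germinal vesicle oocytes (GV) and embryos of 2 (2C) or 4 cells (4C). They made up 14.8% of the 26682 bins that were marked in all 8 of those late libraries (late bins), of which 12124 had been marked in all 6 early libraries as well. Because these 14 libraries chose the members, their H3K4me3 values describe the choice and are no result. The 8-cell H3K4me3 libraries, all H3K27ac, H3K27me3 and H3K9me3 libraries and all ATAC libraries played no part in it.

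H3K4me3 is deposited by the SET1 and MLL families of methyltransferases and sits at gene promoters. In growing oocytes of several mammals it also spreads over broad domains outside promoters, which are removed around the time the embryo begins its own transcription. H3K27ac, laid down by CBP and p300, marks promoters and enhancers that are in use, while H3K27me3 is the mark of Polycomb repression and H3K9me3 that of heterochromatin. In cattle the main wave of embryonic transcription starts around the 8-cell stage, and α-amanitin blocks it by binding RNA polymerase II.

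Bovine embryos were produced in vitro from slaughterhouse oocytes and profiled by CUT&Tag and ATAC-seq. CUT&Tag uses an antibody to guide a transposase to a histone mark, while ATAC-seq reads where a free transposase can reach the DNA. GV oocytes were taken before maturation, 2C at 32 h, 4C at 44 h, 8C at 56 h, MO at 122 h and BL at 172 h after insemination. The 8A group consisted of 56 h 8-cell embryos cultured with 50 μg/ml α-amanitin, and all other embryos were untreated controls. ICM was isolated from blastocysts by immunosurgery and TE by cutting with a micro scalpel, so each lineage rests on its own isolation method. Each library held about 500 oocytes or 1000 to 1500 blastomeres, with 2 libraries per group for each of the 4 marks and 3 ATAC libraries each for BL, ICM and TE. In such pools, fewer cells with a mark and less of the mark per cell cannot be told apart. No result below carries a p-value, since the members were chosen on these data and 2 libraries against 2 cannot give an exact two-sided p under 0.333.

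The lists hold peaks and no reads, so the depth behind each one is unknown. Their covered length differed between stages, and in the direction opposite to the choice of members, which had to be unmarked in the early lists. H3K4me3 peaks covered 159 ± 24.8 Mb (SD, n = 2) of the autosomes in GV, 113 ± 1.37 Mb in 2C and 102 ± 10.8 Mb in 4C, against 45.8 ± 3.35 Mb for MO, 48.4 ± 2.85 Mb for BL, 45.8 ± 1.33 Mb for TE and 38.1 ± 0.606 Mb for ICM. The early lists were therefore the longer ones. At the 8-cell stage the 2 control libraries covered 68.6 and 112 Mb and the 2 inhibitor libraries 60.4 and 52.2 Mb.

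In the lists as deposited, most members were the flanks of H3K4me3 sites already called in an early library. Of the 3938 members, 3139 (79.7%) belonged to a stretch of adjacent late bins that also contained a bin marked in an early library, and these are called edge members. They fell into 2334 such stretches, with 2962 members outside all of the earlier marked bins and 177 between them. The other 799 members (20.3%) made up 605 stretches without any bin marked early, here called stand-alone members, and 474 of those stretches were 1 bin long. A bin beside a member was marked in an early library for 2694 members (68.4%), and the median distance to an early mark was 1 bin, against 20 bins for all autosomal bins without an early mark. The share beside an early mark was much lower when members were chosen anew from lists shortened to one covered length, as given in the closing section. That setting shortened early and late lists alike and chose other members, so the part of the longer early lists was not tested. The name "new sites" therefore holds in the plain sense for the stand-alone members, while the edge members widened sites called in at least 1 early library. Some stand-alone members, too, lay partly under early peaks that stayed below the limit.

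The members were short. They formed 3162 runs of directly adjacent bins, of which 2600 (82.2%) were 1 bin, 414 were 2 bins, 106 were 3 bins and 42 were 4 or more, with a longest run of 7 bins. Late bins marked in all 6 early libraries formed 9205 runs, 73.9% of them 1 bin long and the longest 8 bins. Members occurred on all 29 autosomes, from 0.789 per 1000 bins on chromosome 27 to 3.66 on chromosome 19, with 1.58 over the genome. Their share of the late bins ran from 10.3% on chromosome 29 to 19.6% on chromosome 20.

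The threshold cut through a continuous range. No base of 1720 members (43.7%) lay under any early peak, while 470 members had 450 bases under the early peak list that covered them most, just inside the limit. The 615 late bins with 500 bases in that list lay just outside. At the other limit, 466 members had 500 bases covered in their least covered late library, and 609 bins without an early mark had 450 there. In 862 members all 8 late libraries covered every base.

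At the 8-cell stage H3K4me3 was already called at a sizeable minority of the members, and with α-amanitin at very few. The control libraries marked 1225 members (31.1%) and 1629 members (41.4%), and the inhibitor libraries 94 (2.39%) and 58 (1.47%). The means were 36.2 ± 7.25% in 8C and 1.93 ± 0.646% in 8A (SD, n = 2), and both control values lay far above both inhibitor values. Over all autosomal bins the same libraries marked 3.74 ± 1.39% in 8C and 2.17 ± 0.264% in 8A, so the whole-genome shares were much closer together than those of the members. In the late bins marked in all 6 early libraries the shares were 98.8 ± 1.19% and 89.2 ± 3.40%. In bins with no early mark the means were 0.372% in 8C and 0.0309% in 8A, so 8A was far below 8C there too. Of the 2956 such bins in both 8C lists, members included, 2681 were in no 8A list, beside 934 of 1025 members. The low 8A share was therefore not particular to the members. The shorter control list, of 68.6 Mb, marked 1225 members and the longer inhibitor list, of 60.4 Mb, marked 94. With every list other than those of the rule shortened to the same 37.7 Mb the member shares were 18.4% in 8C and 1.02% in 8A. Choosing the members anew from lists shortened in that way gave 33.2% and 17.2%, which kept the order and narrowed the gap.

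Counted over both libraries, 1025 members (26.0%) were marked in both 8C lists, against a background of 2.54% of all bins, and 2109 (53.6%) in neither, against 95.1%. Both 8A lists marked 12 members (0.305%, background 1.54%), and 3798 members (96.4%) were in no 8A list, beside 97.2% of all bins. The shares absent from 8A were thus close to the background, whereas the shares in 8C were not. The groups separated fully, with both control lists marked and no inhibitor list, at 934 members (23.7%, background 0.627%). The reverse separation held for 1 member (background 0.0295%). Both lists of each group marked 9 members (background 1.33%), and no list of either marked 2089 (53.0%, background 94.8%). Another 804 members were in 1 of the 2 control lists, and leaving out the first 8C library, whose list is the shorter, raised the 934 to 1514. Leaving out a library can only keep or raise this count, since fewer lists then have to meet the rule. Shortening the lists while keeping the members lowered it to 367. The lists of the 2 control libraries overlapped in 83.7% of the members marked in the first and 62.9% of those marked in the second.

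For most members the absence in 8A was not a near miss of the 50% limit. No base lay under an inhibitor peak in 70.1% and 74.6% of the members, and no member was covered in full in either 8A library. In the controls 37.8% and 32.8% of the members had no covered base, and 171 and 287 were covered in full. With a single covered base taken as marked, the shares were 64.7% in 8C and 27.7% in 8A.

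Of all 2956 bins that had no early mark and were marked in both 8C lists, 1443 (48.8%) were marked in both MO lists and 1025 (34.7%) were members. Among the 2681 such bins that were also in no 8A list, 934 (34.8%) were members. For comparison, the MO lists marked 0.487% and 0.634% of all 2237555 bins with no early mark, and 3938 of those bins were members. Bins not in both MO lists can still be in 1 of them. The MO lists were also shorter than the 8C lists, so a loss of the mark in the other bins is not shown.

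**Figure D1:**
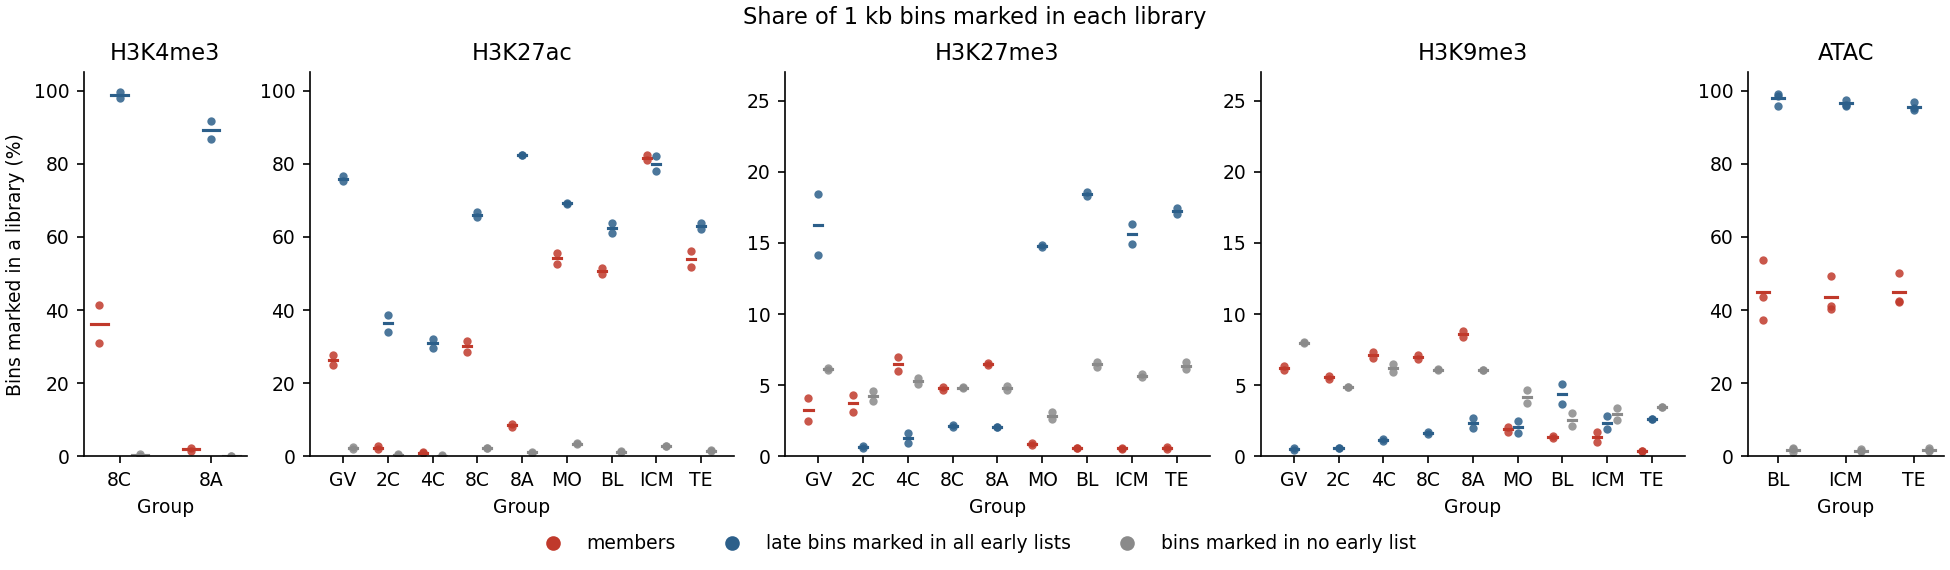
Share of bins marked in each library (dots, in percent) with the mean per group (bars), for the 3938 members (red), the 12124 late bins marked in all early H3K4me3 lists (blue) and all 2237555 bins with no early mark (grey). The vertical axes of H3K27me3 and H3K9me3 end at a lower value than the others. Members lie between 31.1% and 41.4% in 8C H3K4me3 and between 1.47% and 2.39% in 8A, and in H3K27ac they dip in 2C and 4C and peak in ICM.

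Members stood at one end of a gradient among the late bins. When the late bins were ordered by how many of the 6 early lists had marked them, from 0 (the members) to 6, the mean 8C H3K4me3 share was 36.2%, 66.8%, 78.0%, 84.6%, 91.7%, 95.4% and 98.8%. In 8A the order was the same but the steps lay elsewhere, with 1.93%, 9.87%, 20.5%, 31.9%, 55.0%, 67.2% and 89.2%. A late bin with a mark in a single early list was therefore already common in 8C and still rare in 8A. Inside the members the same slope was seen in the bases below the limit: 20.1% of members with no early base were marked in 8C, 56.6% of those with 450 early bases, and 69.8% of the late bins with 500 that lay just outside.

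**Figure D2:**
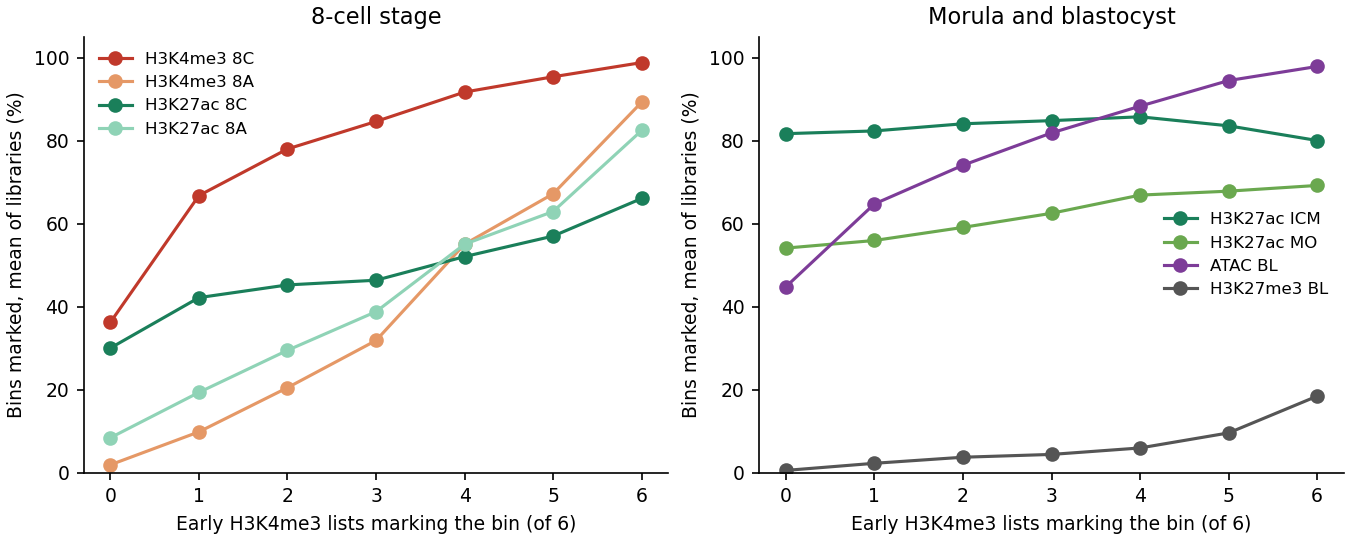
Mean share of late bins marked (percent, vertical axis) against the number of the 6 early H3K4me3 lists that mark the bin (horizontal axis), where 0 stands for the members. The left panel shows the 8-cell stage and the right panel later stages. H3K4me3 in 8A rises from 1.93% to 89.2% across the groups, while H3K27ac in ICM stays between 80.0% and 85.7%.

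H3K27ac was called at part of the members in the oocyte, at very few during the first cleavages and again at part of them at the 8-cell stage. Its share was highest in the ICM. Of the 863 members marked in both 8C libraries, 592 were first marked there, beside 38716 of 63768 over all autosomal bins. Both 8C libraries marked 35.6% of the members with H3K27ac in both GV libraries and 16.6% of those with it in neither. GV libraries marked 25.0% and 27.7% of the members, 2C libraries marked 75 and 110 of them, and 4C libraries 42 and 33. The 8C libraries then marked 31.5% and 28.5%, and the 8A libraries 8.02% and 8.86%. Both control values lay above both inhibitor values, and all 8-cell values above those of 4C. From the morula on the values were 55.6% and 52.7% in MO, 49.9% and 51.5% in BL, 82.4% and 81.0% in ICM, and 51.6% and 56.1% in TE. As means the course was 26.3 ± 1.94%, 2.35 ± 0.628%, 0.952 ± 0.162%, 30.0 ± 2.12% (8A 8.44 ± 0.593%), 54.1 ± 2.05%, 50.7 ± 1.17%, 81.7 ± 0.970% and 53.9 ± 3.2%. The TE values spanned those of MO, and both BL values lay just below both.

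The course over all autosomal bins was flatter, with 5.55% in GV, 2.62% in 2C, 1.31% in 4C, 3.86% in 8C, 3.99% in 8A, 4.64% in MO, 2.03% in BL, 3.97% in ICM and 2.34% in TE. Members were below that level in 2C and 4C and above it at all other stages. As a ratio to it they stood highest in BL, at 24.9, beside 23.0 in TE and 20.6 in ICM. In the late bins that had been marked in all 6 early H3K4me3 lists, H3K27ac marked 75.9 ± 0.997% in GV, 36.4 ± 3.29% in 2C, 31.0 ± 1.71% in 4C and 66.1 ± 1.01% in 8C. Unlike in the members, H3K27ac in those bins was higher in 8A than in 8C, at 82.4 ± 0.0933%. Later those bins had 69.2 ± 0.146% in MO, 62.4 ± 1.89% in BL, 80.0 ± 2.81% in ICM and 63.0 ± 1.31% in TE, so ICM was the highest late group there too. With the H3K27ac lists shortened to 43.4 Mb each, the members had 20.0% in 8C, 3.42% in 8A, 34.7% in MO, 46.5% in BL, 60.5% in ICM and 45.1% in TE, so ICM was still the highest. The order of MO and BL turned with that change, and 8C stayed above 8A.

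In both lists of a stage, H3K27ac marked 756 members in GV (background 4.08%), 20 in 2C (1.2%), 6 in 4C (0.597%), 863 in 8C (2.56%) and 166 in 8A (2.65%). It marked 1820 in MO (3.54%), 1772 in BL (1.71%), 2989 in ICM (3.21%) and 1804 in TE (1.89%), so 75.9% of the members carried it in both ICM libraries. Between 4C and 8C the lists separated upwards at 819 members (20.8%, background 1.84%) and downwards at 1 (background 0.193%). Between 8C and MO they separated upwards at 1009 (25.6%, background 2.37%) and downwards at 184 (4.67%, background 1.53%). Both 8C lists and no 8A list marked 609 members (15.5%, background 1.14%), and the reverse held for 24 (background 1.23%).

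Each member was then placed by the first control stage at which both H3K27ac libraries marked it. The stage was GV for 756 members (19.2%, background 4.08%), 2C for 12 (background 0.698%), 4C for 3 (background 0.192%), 8C for 592 (15.0%, background 1.56%), MO for 1051 (26.7%, background 2.3%) and BL for 224 (5.69%, background 0.358%). No stage up to the blastocyst qualified for 1300 members (33.0%, background 90.8%). The morula was the most frequent first stage. In the late bins marked in all 6 early H3K4me3 lists it was the oocyte, at 70.5%, with 8.33% first marked in 8C and 4.77% in MO.

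The classes differed in how often the acetylation was found at later stages, of which a class first marked earlier had more. Of the 1051 members first marked in MO, 820 (78.0%) were marked in both BL libraries as well. Of the 592 first marked in 8C, 369 (62.3%) were marked in MO and 277 (46.8%) in both MO and BL. The 756 members acetylated in the oocyte were rarely marked in the next stages, with 8 of them marked in 2C and 3 in 4C, and 269 (35.6%) had it again in 8C, 388 (51.3%) in MO and 654 (86.5%) in ICM. It was kept at each stage in 1 of them. Members without H3K27ac in either GV library (2620) had it in both 8C libraries in 16.6% of cases and in MO in 45.4%. Of the 1300 members with no acetylated stage up to BL, 606 (46.6%) were acetylated in both ICM libraries and 136 (10.5%) in both TE libraries.

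**Figure D3:**
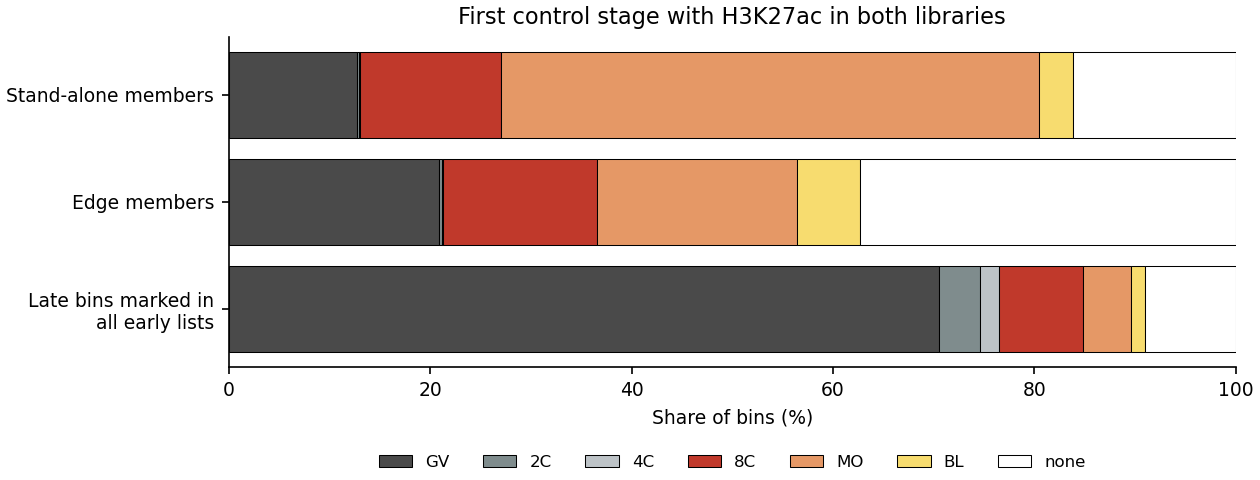
Share of bins (percent, horizontal axis) by the first control stage at which both H3K27ac libraries mark the bin, for stand-alone members, edge members and the late bins marked in all 6 early H3K4me3 lists. The morula is the first stage for 53.4% of stand-alone and 19.9% of edge members, and the oocyte is the first stage for 70.5% of the bins with all early marks.

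The 2 active marks met at the 8-cell stage in part of the members. Both libraries of both marks covered 448 members in 8C (11.4%, background 0.863%), and no library of either mark covered 1614 (41.0%, background 91.7%). In the 1025 members with H3K4me3 in both 8C lists, the 8C H3K27ac share was 54.9 ± 2.90%, and in the 2109 members with it in neither it was 17.5 ± 1.61%. Of the 592 members first acetylated in 8C, 281 (47.5%) also had H3K4me3 in both 8C lists. Of the 1051 first acetylated in MO, 92 (8.75%) had it and 804 (76.5%) were in no 8C H3K4me3 list. Later the order of the 2 groups turned. Members with H3K4me3 in both 8C lists had H3K27ac in 47.5 ± 1.24% in MO and 43.2 ± 2.48% in BL, and those in no 8C list in 60.4 ± 2.31% and 57.8 ± 0.939%. In ICM the groups differed little, at 81.7 ± 0.690% and 83.4 ± 0.469%.

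The oocyte also separated the members. H3K27ac in GV was found in 39.5 ± 2.41% of the members with H3K4me3 in both 8C lists and in 18.8 ± 1.61% of those in no 8C list. Seen the other way, 303 of the 756 members acetylated in both GV libraries (40.1%) had H3K4me3 in both 8C lists, as did 519 of the 2620 acetylated in neither (19.8%). In both classes hardly any had it in 8A, with 6 and 2 members in both inhibitor lists.

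Edge and stand-alone members had different histories. At the 8-cell stage H3K4me3 marked 41.0 ± 8.06% of the edge members and 17.5 ± 4.07% of the stand-alone members, and the lowest edge library (35.3%) lay above the highest stand-alone library (20.4%). With the inhibitor both were low, at 1.98 ± 0.631% and 1.75 ± 0.708%. Full separation of control from inhibitor was seen at 851 edge members (27.1%) and 83 stand-alone members (10.4%). H3K27ac was the higher in edge members in GV (28.7 ± 1.94% against 16.9 ± 1.95%) and in 8C (31.7 ± 2.75% against 23.4 ± 0.354%), and in 8A the libraries overlapped (8.44 ± 0.856% against 8.45 ± 0.442%).

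From the morula on the order was the opposite. H3K27ac marked 78.8 ± 1.42% of stand-alone members in MO and 47.8 ± 2.21% of edge members, 73.9 ± 2.57% against 44.8 ± 0.811% in BL, and 73.3 ± 0.531% against 48.9 ± 3.87% in TE. The gap was small in ICM, at 87.6 ± 1.24% against 80.2 ± 0.901%. Open chromatin by ATAC in BL showed the same order, with 73.6 ± 5.70% of stand-alone and 37.5 ± 8.94% of edge members (SD, n = 3). Of the stand-alone members 427 (53.4%) were first acetylated in MO, 112 (14%) in 8C and 102 (12.8%) in GV. Of the edge members 624 (19.9%) were first acetylated in MO, 480 (15.3%) in 8C and 654 (20.8%) in GV, and 1171 (37.3%) at no stage.

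Sorting by distance gave the same picture in finer steps. H3K4me3 in 8C marked 45.1 ± 8.82% of the 2694 members beside an early-marked bin, 22.1 ± 4.59% of the 493 at 2 bins, 12.4 ± 2.40% of the 354 at 3 to 5 bins, 13.7 ± 5.76% of the 135 at 6 to 10 bins and 15.5 ± 3.51% of the 262 further away. The drop lay within the first few bins, and the last 3 classes overlapped. H3K27ac in MO went from 45.2 ± 1.89% beside an early mark to 79.1 ± 2.00% at 3 to 5 bins and 89.6 ± 1.05% at 6 to 10 bins, and was 78.2 ± 1.62% beyond.

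**Figure D4:**
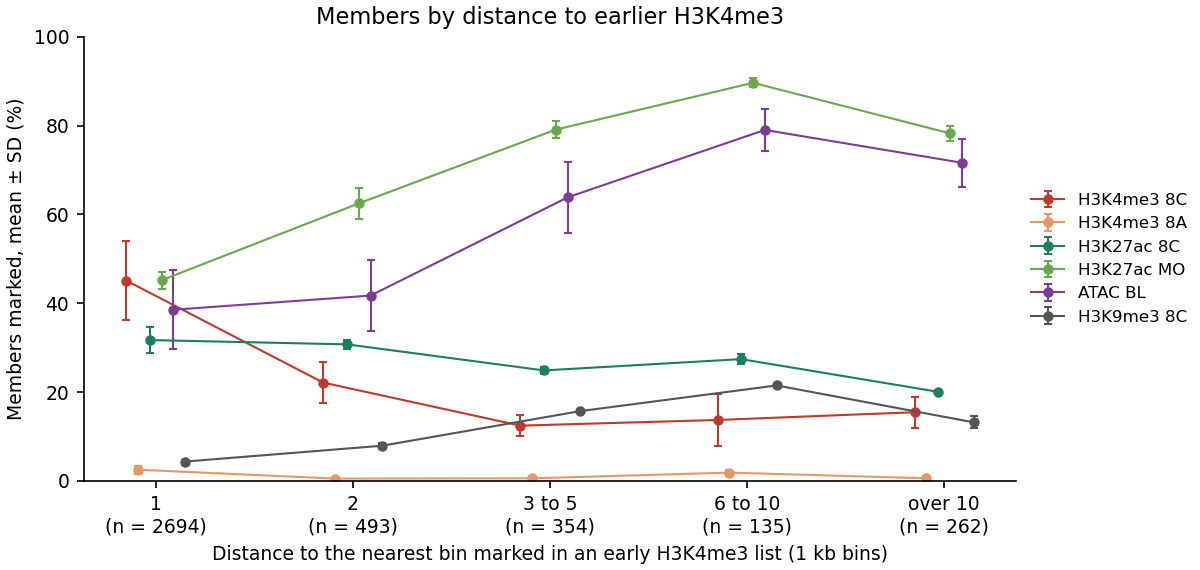
Share of members marked (percent, mean of libraries, bars show SD over 2 libraries, or 3 for ATAC) against the distance to the nearest bin marked in an early H3K4me3 library, in 1 kb bins, with the number of members per class. H3K4me3 in 8C falls from 45.1% to 12.4% within 5 bins, while H3K27ac in MO rises from 45.2% to 79.1%.

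The members were open in blastocysts less often than late bins with all early marks. ATAC peaks marked 37.2%, 43.5% and 53.6% of the members in the 3 BL libraries, 40.2%, 49.2% and 41.0% in ICM, and 42.6%, 50.2% and 42.2% in TE. The 3 groups overlapped. The mean in BL was 44.8 ± 8.28% (SD, n = 3), beside 97.8 ± 1.74% of the late bins with all early marks and 3.77 ± 0.832% of all bins. In all 3 libraries of a group ATAC marked 1285 members in BL (32.6%, background 2.35%), 1332 in ICM (33.8%, background 2.21%) and 1309 in TE (33.2%, background 2.31%). Open members were the more acetylated after the 8-cell stage. Those in every BL ATAC list had H3K27ac in 79.7 ± 1.16% in MO and 77.4 ± 2.20% in BL, and the 1672 in no such list (42.5%, background 94.6%) in 29.5 ± 1.69% and 26.5 ± 0.338%. In 8C the same classes had 28.6 ± 2.20% and 28.0 ± 2.83%, and the libraries overlapped.

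H3K27ac was more often found in ICM without TE than the reverse, and ATAC was about as frequent in both directions. Both ICM lists and no TE list of H3K27ac marked 729 members (18.5%, background 1.53%), and both TE lists and no ICM list 21 (0.533%, background 0.447%). The late bins with all early marks leaned the same way, with 1448 (11.9%) in ICM without TE and 100 (0.825%) the reverse. The direction was therefore not particular to the members. The H3K27ac lists of ICM covered 94.7 ± 4.88 Mb and those of TE 58.9 ± 1.99 Mb, and the part of that gap in the result was not tested. Shortened to one length, the lists gave 476 and 114 members. In ATAC the counts were 59 for ICM (background 0.334%) and 62 for TE (background 0.42%). The choice of members required H3K4me3 in both lineages, so it left out bins marked in one of them.

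Before the morula a small part of the members carried repressive marks, and from the morula on a smaller part did. H3K27me3 marked 3.29 ± 1.13% of the members in GV, 3.72 ± 0.844% in 2C, 6.51 ± 0.70% in 4C, 4.79 ± 0.162% in 8C and 6.48 ± 0.108% in 8A. It then marked 0.851 ± 0.0898% in MO and 0.584% in both BL libraries, where 11.1 ± 0.291% of all bins and 18.5 ± 0.216% of the late bins with all early marks carried it. Leaving out the second 4C H3K4me3 library when the members were chosen raised the late shares to 1.29% in MO, 1.09% in BL, 1.01% in ICM (from 0.559%) and 1.02% in TE (from 0.597%). The late bins with all early marks went the other way after cleavage, from 16.3 ± 3.04% in GV and 1.26 ± 0.496% in 4C. H3K9me3 marked 6.21 ± 0.162% of the members in GV, 6.98 ± 0.215% in 8C and 8.60 ± 0.341% in 8A, and 1.89 ± 0.233% in MO, 1.36 ± 0.0898% in BL and 0.381 ± 0.0359% in TE. Over all bins H3K9me3 was 6.74 ± 0.0201% in 8C, 5.17 ± 0.837% in MO, 4.70 ± 0.956% in BL and 6.18 ± 0.0273% in TE. In ICM the members had 1.35 ± 0.503% and all bins 4.51 ± 0.880%. The members were thus near the genome's level before the morula and below it in MO, BL, ICM and TE.

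The repressed members were found more among the stand-alone ones. H3K9me3 in 8C marked 16.6% of them in each of the 2 libraries and 4.52 ± 0.270% of the edge members, and H3K27me3 in 4C marked 16.0 ± 0.354% and 4.09 ± 0.788%. By MO the stand-alone shares were 6.07 ± 0.619% for H3K9me3 and 1.31 ± 0.0885% for H3K27me3. H3K9me3 in them was 4.51 ± 0.177% in BL, 4.57 ± 1.86% in ICM and 0.688 ± 0.0885% in TE. Over all bins it was 5.17 ± 0.837% in MO, 4.70 ± 0.956% in BL, 4.51 ± 0.880% in ICM and 6.18% in TE. The stand-alone members were thus near the genome's level of H3K9me3 in MO, BL and ICM, and below it in TE. H3K27me3 was in both libraries of GV, 2C, 4C or 8C at 311 members (7.90%, background 11.9%), and 288 of these (92.6%) were in no late H3K27me3 list, as were 98.5% of all members. H3K9me3 was so at 303 members (7.69%, background 8.48%), and 281 of them (92.7%) were in no late H3K9me3 list, as were 96.6% of all members. The counts themselves lay below the background. Of the members with earlier H3K9me3, 10 (3.30%) had H3K4me3 in both 8C lists, against 27.9% of the other members, and of those with earlier H3K27me3, 31 (9.97%) had it, against 27.4%.

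Coordinates of single runs are given for ARS-UCD1.2, the build of the deposited peaks. Genes in them were not analysed here. The longest run, chr2:131014001-131021000, held 7 members and began beside an early-marked bin. H3K4me3 peaks covered 0% of it in GV and 4C, 3.57% and 5.71% in 2C, 6.43% and 3.57% in 8C, and 1.43% and 0% in 8A, and then 95.7% and 98.6% in MO. H3K27ac covered 8.57% and 5.71% in GV, none of it from 2C to 8C or in 8A, then 75% and 70.7% in MO and 95% and 96.4% in ICM. Before MO each mark reached only a small part of the run, and 0 of its 7 bins were marked in both 8C H3K4me3 lists. The run chr3:20131001-20138000, also of 7 bins, had H3K4me3 cover of 12.1% and 0.714% in 8C and 90.7% and 95% in MO. Its H3K27ac cover was 27.1% and 22.9% in GV, 0% in 8C and 8A, and 71.4% and 66.4% in MO. The run chr5:65649001-65655000, of 6 bins, had H3K4me3 cover of 3.33% and 2.50% in 8C and 99.2% and 100% in MO. Its H3K27ac cover was 3.33% and 4.17% in GV, 15.8% and 15% in 8C, 9.17% and 28.3% in 8A, and 95.8% in both MO libraries. All 3 runs were thus low in 8C H3K4me3, while their earlier H3K27ac differed.

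The longest run with most bins in both 8C H3K4me3 lists and no 8A list was chr3:16326001-16331000, where 4 of 5 bins had that status. Its H3K4me3 cover was 2% and 3% in 4C, 74% and 91% in 8C, 5% and 1% in 8A, and 100% in every late library. H3K27ac covered 37% and 48% in GV, 1% and 0% in 2C and none in 4C, then 90% in both 8C libraries and 12% and 8% in 8A. Both active marks were thus high in control 8-cell embryos and low with the inhibitor. The longest run with H3K4me3 in both 8A lists, chr10:100258001-100260000, had 2 bins, of which 1 met the limit in both 8A libraries, and its cover was 27.5% in each 8A library against 87.5% and 90% in 8C.

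The H3K27ac classes were each represented by a longest run. At chr3:8465001-8470000, first acetylated in the oocyte, H3K27ac cover was 59% and 49% in GV, 0% in 2C and 4C, 2% and 1% in 8C, and 66% and 67% in MO. At chr7:60899001-60905000, first acetylated in 8C, it was 54.2% and 57.5% in 8C, 0% in both 8A libraries and 53.3% and 45.8% in MO. At chr20:323001-327000, first acetylated in BL, it was 43.8% and 21.2% in MO and 47.5% and 57.5% in BL. At chr7:71682001-71687000, acetylated at no stage by the rule for both libraries, it was 21% and 13% in MO, 39% and 62% in BL, and 66% and 84% in ICM. H3K4me3 covered at least 81% of each of these runs in each late library.

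Stand-alone runs away from early marks were looked up after their values had been seen. The longest was chr16:46993001-46999000, of 6 bins, 13 bins from the nearest early mark. It was under H3K9me3 in 93.3% and 73.3% of its length in GV and 100% and 93.3% in 8C, and under H3K27me3 in 90% and 70% in 8C. In 8A the same marks covered 100% in both libraries and 93.3% and 100%. From MO on neither repressive mark covered any base, while H3K4me3 covered 99.2% in both MO libraries and H3K27ac 99.2% and 100%. H3K4me3 in 8C was 4.17% and 0%, and H3K27ac in 8C was 0% in both. The run chr6:91431001-91435000, of 4 bins and 9 bins from an early mark, had no H3K4me3 in 8C and 100% and 92.5% in MO, with no repressive mark in any library. The run chr9:68181001-68185000, of 4 bins and 21 bins away, had H3K4me3 cover of 0% and 27.5% in 2C, 11.2% and 10% in 4C, 81.2% and 82.5% in 8C and 15% and 18.8% in 8A, and H3K27ac cover of 85% and 83.8% in 8C and 48.8% and 27.5% in 8A. H3K27ac cover at that run was then 45% and 10% in MO and 0% and 7.50% in BL, and 77.5% and 72.5% in ICM and 37.5% and 41.2% in TE, while its H3K4me3 stayed between 83.8% and 92.5% in the late libraries.

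**Figure D5:**
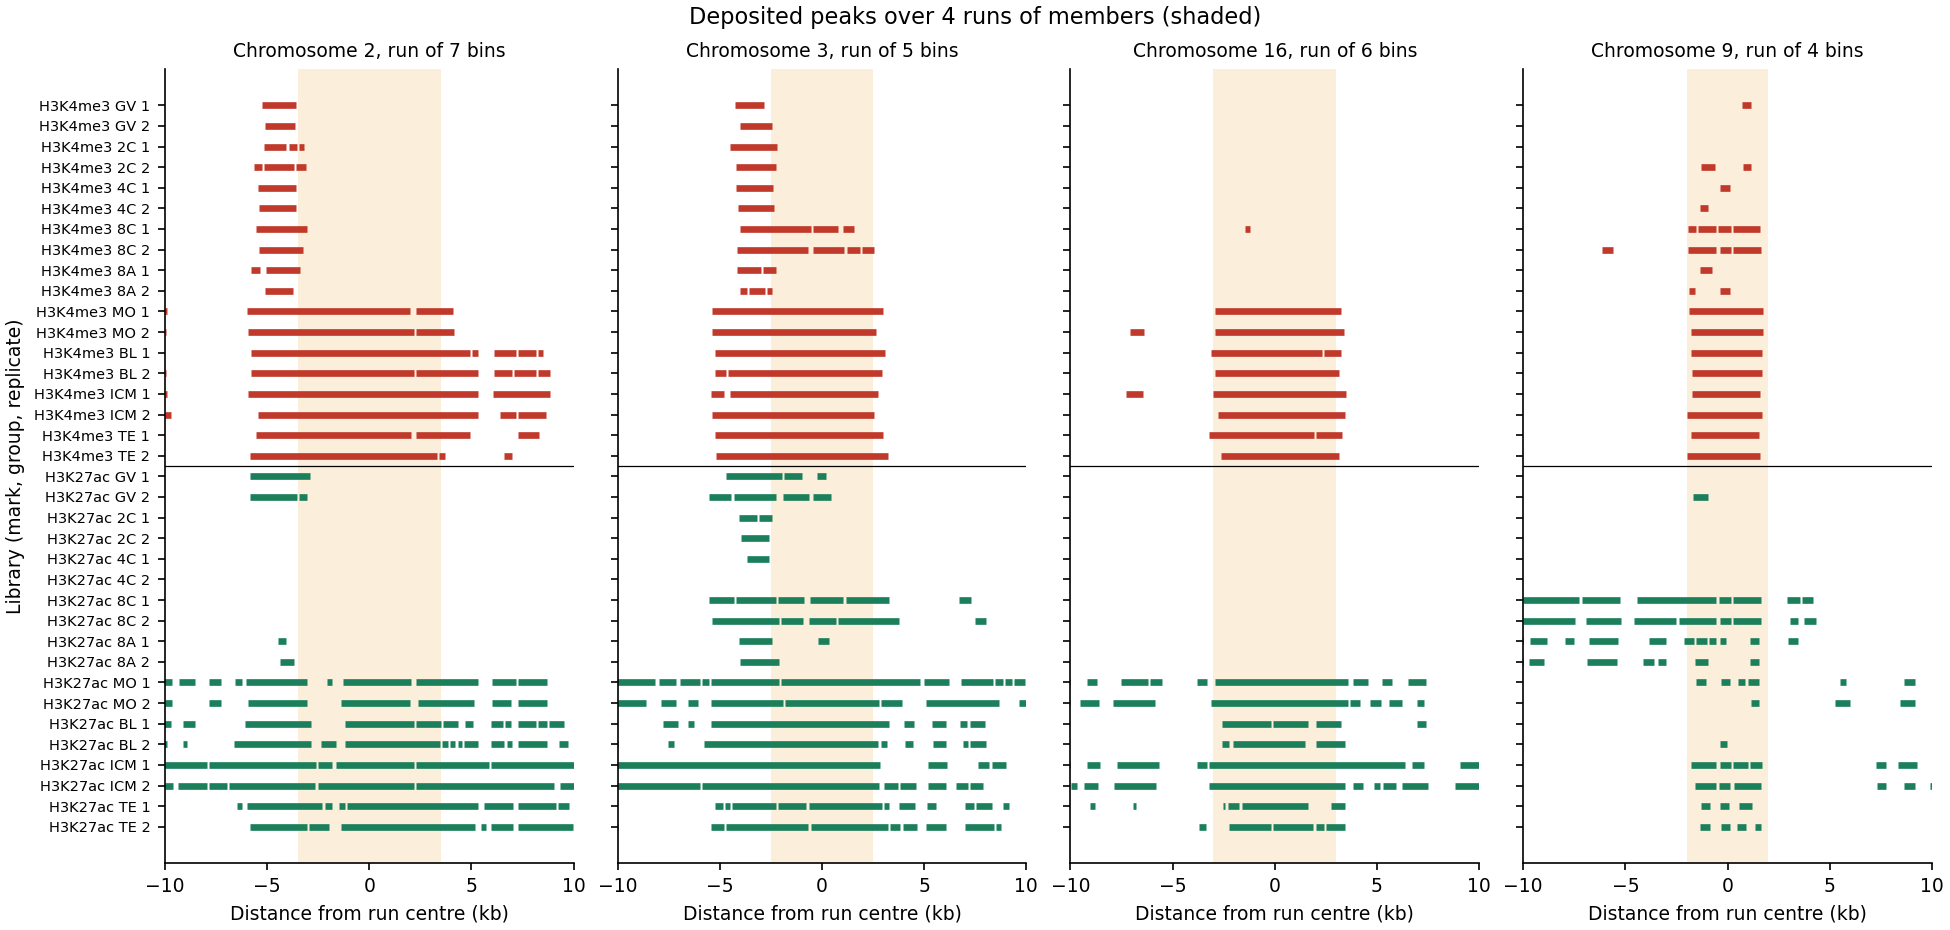
Deposited H3K4me3 peaks (red) and H3K27ac peaks (green) of each library (vertical axis) within 10 kb of the centre of 4 runs of members (shaded), by distance in kb. On chromosomes 2 and 3 early H3K4me3 ends near the left edge of the run and late peaks extend over it, on chromosome 16 no early H3K4me3 peak is near, and on chromosome 9 the run is under peaks of both marks in 8C and mostly free of H3K4me3 in 8A.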

How the data were processed

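CUT&Tag for 4 histone marks (72 libraries) and ATAC-seq (9 libraries) were analysed as peak lists, 1 per library, so the authors had called peaks on each library separately. Groups and replicate numbers came from the sample titles, and nothing says that replicates came from separate cultures, so SDs may measure technical spread. The submitters' processing notes name BWA 0.7.9a, SICER and the ARS-UCD1.2 build, with SAMtools 1.9, Picard 2.26.10, cutadapt 1.8.3 and Trim Galore 0.4.0, without their settings. The deposited lists are named for another caller, epic2, and which made them was not settled. The authors gave each peak a score, as deposited a whole number of unknown meaning, which was used to rank peaks within a list.

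Peak ends, deposited 1 base short of a 50 bp grid (200 bp for H3K27me3 and H3K9me3), were moved up by 1 base. Coverage of 1 kb bins, members and shares were computed in Python 3.11.15 with NumPy 2.4.6 and pandas 2.3.3, and the binning was tested on simulated data. Shares are given per library, as mean ± SD over libraries, beside the share of all bins called by the same rule (the background). Trimmed lists kept the highest-scoring peaks up to the shortest covered length of the mark.

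The members, the stages and the lists were chosen with earlier results of these data known. Single regions were the 3 longest runs and the longest run of each 8-cell and H3K27ac class, with ties broken by score rank. Gene names, gene lists and sequences were not used here, because the gene table at hand is of another build.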

Additional observations from a re-analysis of the deposited data

How the results depend on the processing

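No paired analysis was possible because no result comes from a test. The share of members marked was higher in 8C than in 8A in 26 of 26 settings for H3K4me3 and in 25 of 25 for H3K27ac. The libraries left out singly in these settings were those that chose the members, and none was of 8C or 8A. The settings use the same 8-cell libraries and are not independent of each other. The sizes below moved by more than the SD between libraries or, for counts, by more than 1.5 times. Unless the setting itself uses fewer bins, the cause was not tested. Status means members in both 8C and no 8A H3K4me3 list (934), and first at 8C means members first acetylated there (592).

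With bins marked at 25% coverage the H3K27ac shares were 2.67% in 4C, 10.7% in 8A, 63.1% in MO and 59.7% in BL, and at 75% coverage 0.229% in 4C, 26.8% in 8C, 5.67% in 8A, 40.6% in MO and 39.3% in BL. Bins from position 500 gave H3K27ac in 48.9% in BL. Bins of 2 kb gave 2205 members in 1976 runs, 340 first at 8C, and H3K27ac in 0.408% in 4C, 51.7% in MO and 47.4% in BL. Requiring no base under an early peak left 1720 members in 1331 runs, with H3K4me3 in 20.1% in 8C and 0.291% in 8A, a status count of 238, 258 first at 8C, and H3K27ac in 1.34% in 4C, 26.3% in 8C, 6.83% in 8A, 64.1% in MO and 58.6% in BL.

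Choosing members from trimmed lists gave 8521 members in 5668 runs, 31.1% of them beside an early-marked bin, with H3K4me3 in 17.2% in 8A, 1305 first at 8C, and H3K27ac in 5.69% in 4C, 14.7% in 8A, 32.5% in MO and 53.1% in BL.

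Settings chosen after seeing the data were these. With the members kept and any covered base counted, H3K4me3 was in 64.7% in 8C and 27.7% in 8A. With the members kept and the other lists trimmed, it was in 18.4% and 1.02%, the status count was 367, and H3K27ac was in 20.0% in 8C, 3.42% in 8A, 34.7% in MO and 46.5% in BL. Stand-alone members had H3K4me3 in 17.5% in 8C, a status count of 83, 112 first at 8C, and H3K27ac in 1.31% in 4C, 23.4% in 8C, 78.8% in MO and 73.9% in BL. Peak ends as written gave H3K27ac in 0.733% in 4C and 48.3% in BL.

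Leaving out 1 library at a time gave H3K4me3 in 31.1% to 41.4% in 8C and 1.47% to 2.84% in 8A, H3K27ac in 8.02% to 9.69% in 8A, 51.9% to 55.6% in MO and 49.1% to 51.5% in BL, and a status count of 938 to 1514. The highest count was without the first 8C library. The number of members was 3969 to 4519. Both counts can only stay or rise when a library is left out, since fewer lists then have to meet the rule.

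The lists give no reads, so a bin outside a peak shows no call at an unknown depth, not the absence of a mark. Early lists were longer than late ones, and trimming by score keeps wide peaks. Bins at the limit are split by small differences in coverage.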
